A study of Homo sapiens with 4 samples.

Results

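The fatty acid binding proteins, the nuclear receptors of the PPAR-RXR system and the fatty acid translocase CD36 were examined in SAS cells, a human tongue squamous cell carcinoma line, after knockdown of AEG-1 (gene symbol MTDH, also called LYRIC). The 10 genes were FABP3, FABP4, FABP5, FABP6, FABP7, PPARG, PPARA, PPARD, RXRA and CD36, out of 23485 genes tested, and 15 of the 34127 probes on the array belonged to them. FABP4 was selected on its log2 ratio in these same arrays, where its signal was higher in the knockdown cells, so its change is described without a test. The other 9 were chosen as its relatives and as the receptors that control it. On each of the 4 arrays, all 15 probes were well above background in red and in green.

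Fatty acid binding proteins are small cytosolic carriers that hold long-chain fatty acids in a barrel-shaped pocket and move them between membranes, enzymes and the nucleus. The peroxisome proliferator-activated receptors (PPARs) are transcription factors that bind fatty acids and their derivatives, pair with a retinoid X receptor (RXR) and bind DNA at repeats of the hexamer AGGTCA. FABP4, known from adipocytes and macrophages, is a classic target of PPARG, whereas FABP5 is the main form in squamous epithelium. AEG-1 has been described as a binding partner of RXR.

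The knockdown cells (SB cells) stably carried the lentiviral pLKO.1 vector with LYRIC shRNA-B, and the controls (SCt cells) carried pLKO.1 by the labels, whereas the study's methods give a scrambled shRNA. Both were stable SAS clones selected for 14 days with 2 μg/ml puromycin, and 1 shRNA was used, so clone and hairpin cannot be told apart from the loss of AEG-1. Each of the 4 arrays carried red-labelled SB RNA and green-labelled SCt RNA, and 0 arrays had the dyes swapped, so a dye preference of a probe and the knockdown cannot be told apart. The labels call the arrays biological replicates without saying whether separate cultures were used, so the p-values measure only the spread between these 4 arrays, which may be technical. Values are log2 ratios of SB over SCt after background correction and loess normalization, and a gene with several probes is represented by its brightest. A gene was called where limma's test over all probes gave an adjusted p under 0.05.

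The arrays shared 1 slide and 1 scan, with 85.4% to 90.3% of spots above background in the SB channel and 84.7% to 90.0% in the SCt channel. The number of arrays limits the precision. MTDH was lower in SB cells on every array, with log2 ratios of -3.18, -3.01, -3.12 and -3.41, a mean of -3.18 ± 0.17 (SD, n = 4). The 9 squamous epithelial markers looked at, among them KRT5, KRT14 and TP63, were above background in SB and SCt cells on every array. Of the 8 fibroblast markers, 5 were above background in both channels throughout, among them COL1A1 and FAP, whereas COL3A1 and LUM were above it in neither channel on any array.

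The DNA upstream of these genes is shown first because the receptors act through the AGGTCA hexamer. RefSeq promoters (GRCh38.p14) were found for 8 of the 10 genes, and for each transcription start the 250 bases before it were searched on both strands for AGGTCA and for the spaced repeat AGGTCANAGGTCA, in which each copy contains the shorter motif. The hexamer was in 12.1% of 35116 promoters and the spaced repeat in 0.0171%. Of the 8 genes, only PPARG held the hexamer, and none held the spaced repeat. No promoter was found for FABP4 or FABP5, so neither was searched. Below, the window before the most upstream PPARG start, which lies outside the gene (chr3:12287118-12287367, plus strand), is set beside those of its partner RXRA (chr9:134326205-134326454, plus strand) and of FABP3 (chr1:31373077-31373326, minus strand), to show how the composition differs. Capitals mark AGGTCA.
PPARG: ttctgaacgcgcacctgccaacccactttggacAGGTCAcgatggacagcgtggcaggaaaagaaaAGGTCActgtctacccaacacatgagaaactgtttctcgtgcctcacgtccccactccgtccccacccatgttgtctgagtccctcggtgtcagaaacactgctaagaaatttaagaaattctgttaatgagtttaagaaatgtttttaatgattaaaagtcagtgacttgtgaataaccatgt
RXRA: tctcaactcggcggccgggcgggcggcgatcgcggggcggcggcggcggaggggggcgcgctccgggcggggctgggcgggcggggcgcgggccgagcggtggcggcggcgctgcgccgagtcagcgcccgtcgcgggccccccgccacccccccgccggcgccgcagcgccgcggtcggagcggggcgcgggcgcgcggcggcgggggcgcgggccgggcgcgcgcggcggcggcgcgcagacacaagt
FABP3: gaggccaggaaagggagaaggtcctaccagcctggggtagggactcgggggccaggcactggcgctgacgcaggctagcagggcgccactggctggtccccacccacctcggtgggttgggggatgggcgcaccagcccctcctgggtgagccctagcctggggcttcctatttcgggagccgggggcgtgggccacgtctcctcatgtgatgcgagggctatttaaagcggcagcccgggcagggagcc

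The 2 hexamers of PPARG began 217 and 184 bases before the start, on the printed strand. A further one was shared by the overlapping windows of 2 later PPARG starts. G and C made up 44.8% of the PPARG window, 89.2% of that of RXRA and 69.2% of that of FABP3, against a median of 58.0% over all promoters. The PPARA window was also rich in G and C, at 84.4%, and that of CD36 was poor, at 37.2%. A match of letters is a description of the sequence and not a measured binding site.

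FABP4, the adipocyte and macrophage form, was higher in SB cells than in SCt cells. Its 1 probe gave log2 ratios of 0.715, 1.115, 1.096 and 0.587 on arrays 1 to 4. All 4 ratios were above 0, arrays 2 and 3 being the higher pair. The mean was 0.88 ± 0.27 (SD, n = 4), a 1.84-fold difference. On a log2 scale set across arrays, the level in SB cells was 7.49, 8.19, 7.80 and 7.28, and that in SCt cells was 6.78, 7.08, 6.70 and 6.69. The lowest SB level thus lay above the highest SCt level. FABP4 was selected on these values, and how many of all genes are separated in this way was not counted, so nothing is drawn from it. Among the 23485 genes, 8 had a higher mean ratio with this processing, and FABP4 ranked 3 among the 15732 protein-coding genes. Above it were CYP1B1, a cytochrome P450, at 0.99 ± 0.36 and DIO2, a deiodinase of thyroid hormone, at 0.90 ± 0.47 (SD). Since FABP4 was selected for its rise, a high rank followed from the choice.

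**Figure D1:**
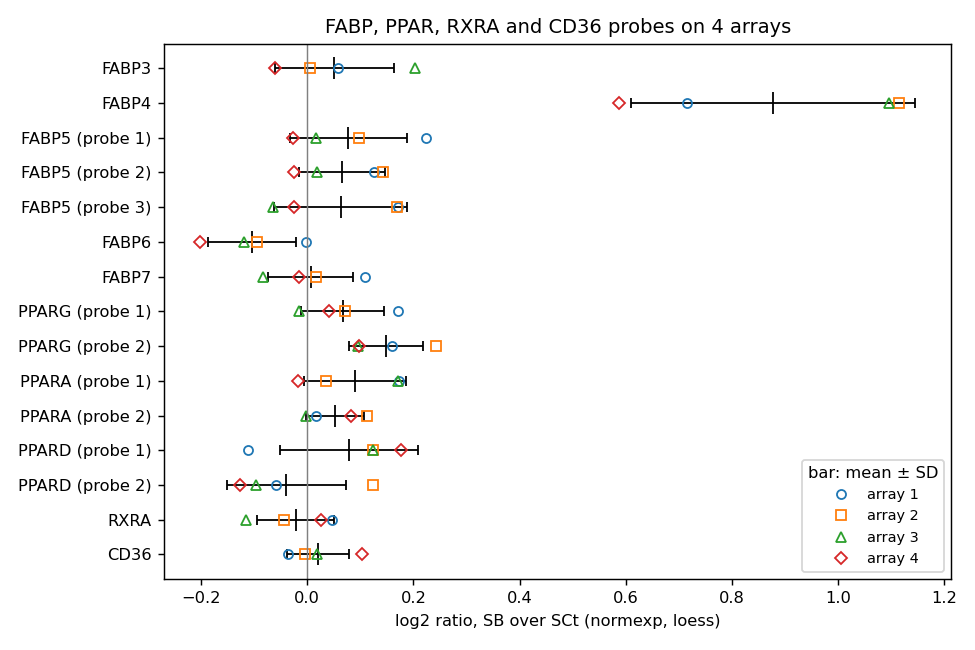
Log2 ratio of SB over SCt (horizontal axis) for each of the 15 probes (rows), with 1 symbol per array, the mean as a tick and the SD over the arrays as a bar. FABP4 sits between 0.59 and 1.11, and the other 14 probes sit between -0.20 and 0.24.

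FABP4 was a dim spot. In the scanner's units, its median intensity in the SB channel was 200 on array 1, 319.5 on array 2, 288.5 on array 3 and 146 on array 4, over a local background of 42 to 47. In the SCt channel it was 59, 83.5, 75 and 55.5, over a background of 20 to 23. The spot was brighter than its background in both channels on every array, and array 4 was the dimmest in both. The size of the ratio changed with the processing. The mean was 0.88 with an offset of 50 added after background correction, 1.36 without the offset and 1.15 with no background correction. It was 1.81, or 3.50-fold, in the scanner software's own ratio, which differs in background, normalization and signal at the same time, and whose values on the arrays were 1.83, 1.93, 1.96 and 1.50. The direction was the same under every processing tried, and the lowest mean was 0.70.

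**Figure D2:**
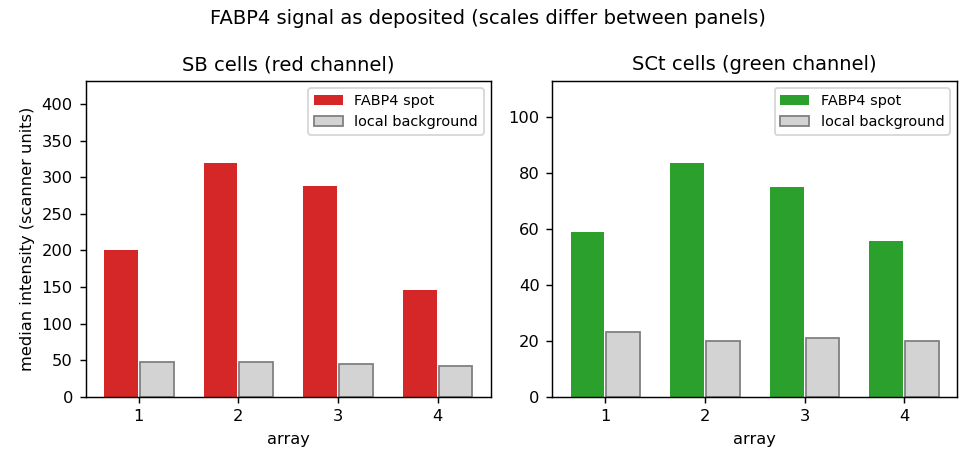
Median intensity of the FABP4 spot and of its local background, in scanner units, on each of the 4 arrays, with SB cells on the left and SCt cells on the right and separate vertical scales that start at 0. The spot lies above its background in all 8 readings, from 55.5 in SCt cells on array 4 to 319.5 in SB cells on array 2.

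**Figure D3:**
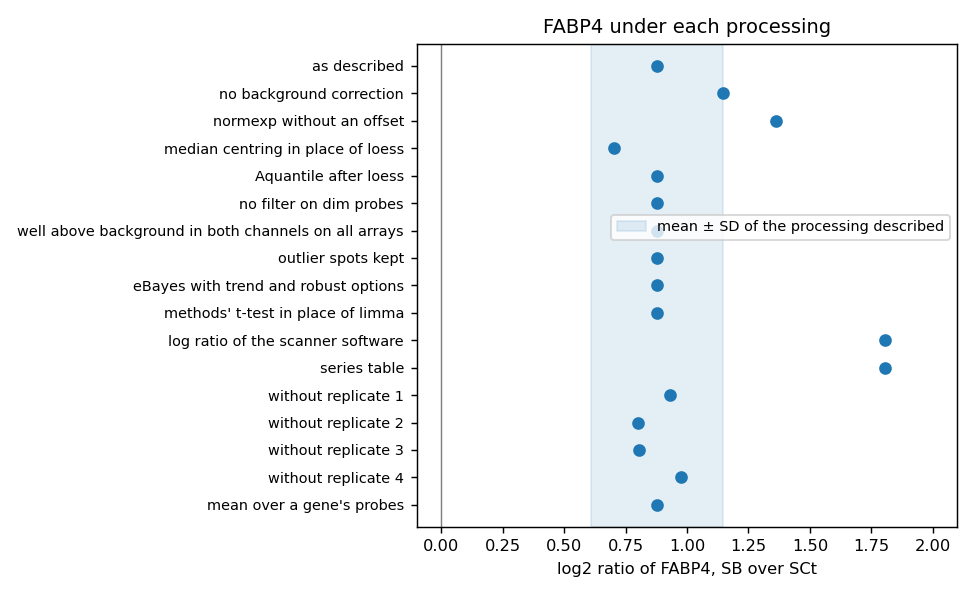
Mean log2 ratio of FABP4, SB over SCt (horizontal axis), under each processing (rows), with the mean ± SD of the processing described as a shaded band. The values run from 0.70 with median centring to 1.81 with the software's ratio and with the series table.

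The other fatty acid binding proteins stayed near a ratio of 1. FABP5, the epidermal form, had 3 probes with means of 0.08 ± 0.11, 0.066 ± 0.081 and 0.063 ± 0.13 (SD, n = 4), which lay within 0.0147 of each other. The brightest read 0.22, 0.097, 0.017 and -0.027, so that arrays 1 to 3 were above 0 and array 4 just below. Its 95% interval was -0.054 to 0.21 (adjusted p = 0.536). FABP5 has near-identical processed copies elsewhere in the genome, so its signal may include theirs. FABP3, the heart and muscle form, read 0.059, 0.0045, 0.20 and -0.061, a mean of 0.051 ± 0.11 with an interval of -0.081 to 0.18 (adjusted p = 0.707).

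FABP6, the ileal carrier of bile acids, was below 0 on all 4 arrays, at -0.0015, -0.095, -0.12 and -0.20. Its mean was -0.10 ± 0.083 (SD, n = 4) with an interval of -0.23 to 0.021, and it was not called (adjusted p = 0.360). Among all genes, 12.2% were below 0 on all 4 arrays and 13.9% above 0. FABP7, the brain form, read 0.11, 0.016, -0.083 and -0.016, with as many arrays above 0 as below. Its mean was 0.0062 ± 0.079, with an interval of -0.12 to 0.13 (adjusted p = 0.969). The levels of FABP3, FABP5, FABP6 and FABP7 in SB and SCt cells overlapped across arrays, and the share of all genes that overlap was not counted. That comparison leaves aside that both cell types share each array, so a gene such as FABP6 can overlap though its 4 ratios have the same sign.

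PPARG, the receptor that drives fat cell formation and FABP4 expression, had 2 probes. The brighter, spotted 10 times on each array, read 0.17, 0.070, -0.015 and 0.040, a mean of 0.067 ± 0.078 (SD, n = 4) with an interval of -0.058 to 0.19 (adjusted p = 0.580). The other read 0.16, 0.24, 0.095 and 0.097 and was above 0 on all 4 arrays. Its mean of 0.15 ± 0.070, a 1.11-fold difference, had an interval of 0.026 to 0.27 and an unadjusted p of 0.0216 in limma's test, but it was not called over all probes (adjusted p = 0.176). Without adjustment, 18.7% of all probes had a p under 0.05, and of the 14 probes other than that of FABP4, 1 did.

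PPARA, the receptor that controls fatty acid oxidation in liver, read 0.17, 0.036, 0.17 and -0.018 with its brighter probe, a mean of 0.090 ± 0.097 (SD, n = 4) and an interval of -0.038 to 0.22 (adjusted p = 0.445). Its dimmer probe had a mean of 0.052 ± 0.054. PPARD, the widely expressed receptor, had probes on either side of 0. The brighter read -0.11, 0.12, 0.12 and 0.18, a mean of 0.078 ± 0.13, and the dimmer -0.059, 0.12, -0.097 and -0.13, a mean of -0.040 ± 0.11. The brighter PPARD probe was below 0 on array 1 alone and the dimmer one above 0 on array 2 alone, and neither was called (adjusted p = 0.551 and 0.781).

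RXRA, the shared partner of the PPARs, read 0.046, -0.043, -0.11 and 0.025, a mean of -0.022 ± 0.073 (SD, n = 4) with an interval of -0.14 to 0.10 (adjusted p = 0.880). CD36, a membrane receptor that takes up fatty acids and another known target of PPARG, was spotted 10 times and read -0.036, -0.0045, 0.019 and 0.10. Its mean was 0.020 ± 0.059 with an interval of -0.10 to 0.14 (adjusted p = 0.886). For both genes the arrays were evenly divided around 0.

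Of the 9 genes other than FABP4, 0 were called in limma's test, where 3.51% of all 23485 genes were called, 1.26% higher and 2.26% lower in SB cells. Counted by probe, the call was 0 of 14, where 3.7% of all 28507 probes were called, 1.32% higher and 2.38% lower. At an unadjusted p under 0.05 the count by the brightest probe was also 0 of 9, where 18.1% of all genes passed. With a share of 3.51% over all genes, a count of 0 among 9 is near the background. The intervals of the 14 probes together reached from -0.23 to 0.27, and only that of the dimmer PPARG probe did not include 0. None of their 56 single-array values reached the lowest FABP4 value of 0.59. FABP4 was selected for its rise on these arrays, and the share of all probes below that value was not counted. Nothing is therefore drawn from this gap. Of the 14 means, 11 were above 0 and 3 below, but some probes share a gene, and the share over all probes was not counted. By the brightest probe, the median of the 9 genes was 0.051, beside 0.013 for all genes.

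These directions depended on the normalization. With median centring in place of loess, FABP3 at 0.19, FABP5 at 0.45 and PPARG at 0.19 were called higher. FABP7 at -0.19 was called lower, which made 4 of the 9. Of all 28507 probes, 8939 were called in place of 1055. The bright probes moved up and the dim ones down. The brightest FABP5 probe, with a mean log2 signal of 15.7, moved by 0.37, and the dimmer PPARA probe, at 6.88, by -0.26. FABP4, at 7.25, moved by -0.18 to 0.70, and CD36, at 8.38, by -0.0038.

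**Figure D4:**
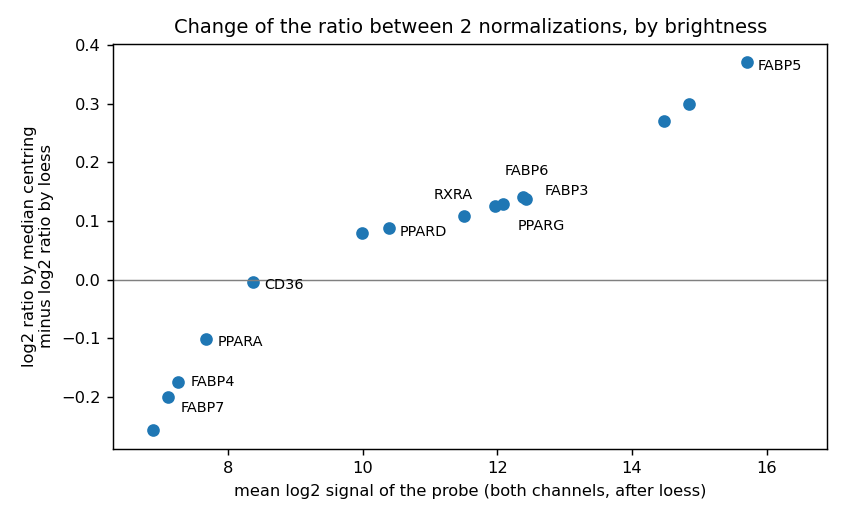
Difference between the log2 ratio after median centring and that after loess (vertical axis) against the mean log2 signal of the probe over both channels (horizontal axis), for the 15 probes, with 1 probe per gene labelled. The difference runs from -0.26 at the dimmest probe to 0.37 at the brightest.

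Relatives of the fatty acid binding proteins that carry retinoids or other lipids were read next. Of the 10 genes reported here, 6 were tested and 0 were called in limma's test, with 1 at an unadjusted p under 0.05. The shares over all genes were 3.51% and 18.1%. The median of the 6 was -0.014. The gene at an unadjusted p under 0.05 was CRABP2, a carrier of retinoic acid, which read -0.079, -0.11, -0.14 and -0.18. It was below 0 on all 4 arrays, with a mean of -0.13 ± 0.045 (SD, n = 4), and was not called (adjusted p = 0.230). RBP7, a carrier of retinol, was at 0.080 (adjusted p = 0.507) and CRABP1, another carrier of retinoic acid, at 0.065 (adjusted p = 0.610). FABP9, the nearest protein-coding gene to FABP4 on one side in the RefSeq order, was at -0.014 (adjusted p = 0.934), and the neighbouring PMP2 and FABP12 were above background on 0 arrays.

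Among partners and coregulators of the receptors, 2 of 21 tested genes were called, both lower, out of 24 listed, with a median of -0.035. At an unadjusted p under 0.05 in limma's test there were 8. Over all genes, 3.51% were called, 2.26% were called lower and 18.1% had an unadjusted p under 0.05. The 8 of 21 lie above that last share, and whether the list differs from other genes was not tested. RARG, a retinoic acid receptor that also pairs with RXR, read -0.43, -0.37, -0.72 and -0.34. Its mean was -0.47 ± 0.18 (SD, n = 4), 1.38-fold lower (adjusted p = 0.00393), and array 3 lay lowest. NRIP1, also called RIP140, a corepressor that nuclear receptors bind, read -0.76, -0.41, -0.54 and -0.23 with its brighter probe. Its mean was -0.49 ± 0.23, 1.40-fold lower (adjusted p = 0.00626). The dimmer NRIP1 probe was at -0.27 ± 0.26 and was not called (adjusted p = 0.103), and without array 3 the brighter one was not called either (adjusted p = 0.106). RARB, another retinoic acid receptor, was at -0.22 (adjusted p = 0.0737) and the coactivator NCOA2 at 0.24 with its brighter probe (adjusted p = 0.0786). The dimmer NCOA2 probe was at 0.14 ± 0.22 (adjusted p = 0.384) and below 0 on array 2. TBL1XR1, a corepressor exchange factor, was at -0.26 (adjusted p = 0.112) and above 0 on array 4. RXRG and PPARGC1A did not pass the filter on dim probes, and all spots of RXRB were outliers, so none of the 3 was tested.

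Known PPAR target genes, apart from those already described, gave 0 calls in limma's test among 43 tested of 49 listed, with 7 at an unadjusted p under 0.05 and a median of -0.016. Over all genes, 18.1% had an unadjusted p under 0.05, and the share in the list is near that background. FGF21, a hormone of fasting, had the highest mean in the list, 0.62, but values on arrays 3 and 4 only, of 1.00 and 0.24, and the fit with those 2 arrays did not call it (adjusted p = 0.0526). EHHADH, an enzyme of peroxisomal fatty acid oxidation, was at -0.30 ± 0.28 (adjusted p = 0.0944) and CAT, the peroxisomal catalase, at -0.21 ± 0.12 (adjusted p = 0.0901). EHHADH was below 0 on all arrays, from -0.70 to -0.058, and so was CAT, from -0.37 to -0.088.

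Genes of fatty acid uptake and activation gave 0 calls among 24 tested, with 3 at an unadjusted p under 0.05 in limma's test, beside the same 18.1% over all genes, and a median of -0.021. LIPA, the lysosomal acid lipase, was at -0.25 ± 0.15 (adjusted p = 0.0631), CAV1, a coat protein of membrane caveolae, at 0.17 ± 0.18 (adjusted p = 0.222), and MGLL, which cleaves monoacylglycerols, at -0.16 ± 0.23 (adjusted p = 0.321). LIPA was below 0 on all 4 arrays, whereas CAV1 and MGLL each had an array on the other side of 0.

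**Figure D5:**
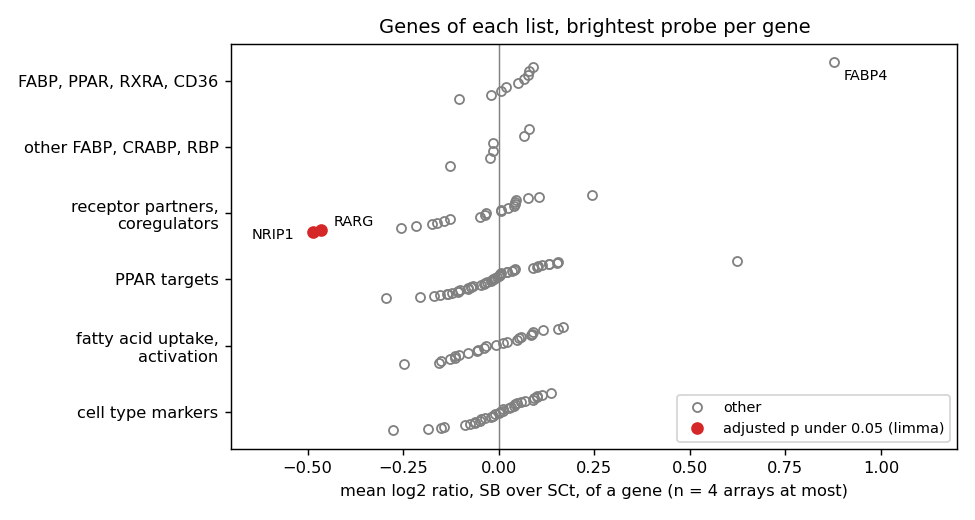
Mean log2 ratio of SB over SCt (horizontal axis) of every tested gene reported here in each list (rows), by the brightest probe, with genes called by limma filled in red and FABP4 labelled without a test. RARG lies at -0.47 and NRIP1 at -0.49, FABP4 lies at 0.88, and the open point at 0.62 is FGF21.

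FABP4 is also a marker of adipocytes, macrophages and some endothelia, so the markers of those cells were read beside it. Of the adipocyte markers on the array, 5 of 5 were above background in SB and SCt cells throughout, and their summed level was 1829 to 2107 in SB cells and 1763 to 2020 in SCt cells, on a linear scale over the 4 arrays. Among them ADIPOQ, the adipocyte hormone adiponectin, was at -0.035 and PLIN1, the lipid droplet coat protein, at -0.021. Macrophage markers were above background for 6 of 6, with summed levels of 23492 to 30429 in SB cells and 23746 to 29784 in SCt cells. Endothelial markers were above background for 6 of 8, with sums of 6163 to 7686 and 5936 to 7778. These counts stand beside 84.7% to 90.3% of all spots above background in a channel of an array. Each sum is carried by its brightest probes, PTPRC for macrophages (the brightest of its 4 probes) and ESAM for endothelium. The ratios of single genes are therefore given beside it. They ran from -0.063 to 0.11 for the tested adipocyte markers, from -0.074 to 0.10 for macrophage and from -0.089 to 0.092 for endothelial markers. Over all 31 markers tested 0 were called in limma's test, beside 3.51% of all genes, and 5 had an unadjusted p under 0.05, beside 18.1% of all genes. All 5 were among the 9 squamous epithelial markers, a share above that of all genes, and the other lists gave 0. They were KRT6A at -0.28, DSG3 at -0.18, SFN at -0.15, EPCAM at -0.14 and KRT14 at 0.14.

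The genes whose ratios lay nearest to those of FABP4, by the root mean square difference over 4 arrays among 23136 genes with 4 values, included 3 genes of non-coding RNA. The 5 were SNORD116-19, a small nucleolar RNA (difference 0.196), the transcript ENST00000304890 (0.219), the ribosomal RNA genes RNA18SN5 (0.252) and RNA28SN5 (0.293), and S100A9, a calcium-binding protein of neutrophils and inflamed epithelium (0.330). S100A9 had a mean of 0.61 ± 0.39 (SD, n = 4). The 4 other transcripts had means of 0.75 to 0.90, and ENST00000304890 was not well above background in SCt cells on any array, so its ratio is not a measured fold.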

How the data were processed

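The authors deposited for each two-colour array the median intensity and local background of every spot from Agilent Feature Extraction 10.5.1.1, not normalized, and the software's processed red over green ratio as a log10 value. A table of the whole series, also deposited by the authors, holds log2 values of SB over SCt. Here the intensities were background-corrected by normexp (offset 50), control spots and outlier spots were removed, and log2 ratios were normalized by loess within arrays in limma 3.58.1 (R 4.3.3). Spots of a probe were averaged. Probes well above background in one channel on all 4 arrays, with values on at least 2, were kept (28507 of 34127). Means were tested against 0 by lmFit and eBayes, two-sided, with Benjamini-Hochberg adjustment over all kept probes. Levels per channel came from Aquantile normalization after loess.

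Probes were named through accessions in RefSeq (24826 of 34127 matched). The array design uses another genome build, so probe positions are not given. The 10 genes, the gene lists and the tests were chosen with earlier results of these data known. Genes named are MTDH, the 10 genes, of each list the called genes or else the 3 with the largest absolute ratio, the 5 nearest FABP4 and its neighbours in RefSeq order. CYP1B1, DIO2, ADIPOQ, PLIN1, PTPRC, ESAM, EPCAM, KRT14 and further genes of the closing section were named with their values known. One item is not reported here and was left out of the gene lists. The steps were tested on simulated arrays. Alternatives were other background corrections, normalizations, filters and tests, the software's ratios, the series table, the mean over a gene's probes and each array left out.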

Additional observations from a re-analysis of the deposited data

Results flagged for a closer look

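Of 49 probes with values on 4 arrays, 2 had 1 array far from the other 3 for the range of the probe, and chance alone marks about 5%. ENST00000304890 was at 0.95 on array 3 and between 0.88 and 0.884 on the others, but it was not well above background in SCt cells on any array, so no order can be read from these values. LIPE, the hormone-sensitive lipase, was at -0.077 on array 1 and between 0.068 and 0.095 on the others.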

How the results depend on the processing

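FABP4 kept its direction under all alternatives, at 1.36 without the normexp offset and 1.81 with both the software's ratio and the series table. With median centring FABP3 (0.19), FABP5 (0.45) and PPARG (0.19) became called, FABP7 turned to -0.19 and was called, and FABP6 (0.037), PPARA (-0.011) and RXRA (0.10) changed sign. Under that setting 8939 of all 28507 probes were called. Calls were 4 of the 9 genes, 14 of 43 PPAR targets and 5 of 24 uptake and activation genes. Partners and coregulators gave 7 of 21 and cell type markers 10 of 31. The software's ratio and the series table turned FABP5 to -0.014 and FABP7 to -0.038 and called 1 PPAR target each, EHHADH, and no background correction turned FABP7 to -0.0037. The series table called 698 probes. The trend and robust options of eBayes called 1 of 24 uptake genes, LIPA, and 1298 of 28507 probes. Partners and coregulators gave 3 calls with those options, no background correction, no offset, the software's ratio or the series table. The methods' t-test called 0 probes and 0 partners and coregulators after adjustment (3936 probes at an unadjusted p under 0.05), and left MTDH at -3.18 (adjusted p = 0.144).

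Leaving out one array gave 204 (without array 3) to 1977 (without array 4) called probes, with 638 without array 1 and 421 without array 2, where 1055 were called with all arrays. Partners and coregulators fell to 1 call without array 3. Without array 4, partners and coregulators gave 3 calls, PPAR targets 2 (SCD and EHHADH), uptake genes 1 (LIPA) and markers 1 (KRT6A). With one array left out, FABP7 ranged from -0.028 (without array 1) to 0.036, RXRA from -0.044 to 0.0094 (without array 3) and CD36 from -0.0072 (without array 4) to 0.039. The cause of these changes was not tested. No further paired analysis was run, because both cell types share each array and the tested ratio already pairs them. A fit blocked by slide was not run, since there was only 1 slide. The FABP4 spot is dim, and the background treatment moves its fold more than leaving out any array does.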

Other observations

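RARG is a receptor for retinoids, whose transport and metabolism supply ligands to receptors paired with RXR, so 18 genes of retinoid transport, metabolism and reception were read after part of their values had been seen, and no test is given. Of 14 genes with a kept probe, 9 had a mean below 0 and 7 were below 0 on all 4 arrays, beside 12.2% of all genes below 0 on all 4. The list holds RARA, RARB, RARG, CRABP1 and CRABP2, which belong to lists described above and whose values were already known, so the counts are no support for a pattern. The median was -0.14. ALDH1A3, which makes retinoic acid, was lowest, at -0.64, -0.59, -0.66 and -0.39, a mean of -0.57 ± 0.12 (SD, n = 4). CYP26B1, which degrades retinoic acid, was at -0.24 ± 0.036, RARA, a retinoic acid receptor, at -0.16 ± 0.051 and RBP4, the plasma carrier of retinol, at -0.14 ± 0.068. ALDH1A1, another enzyme that makes retinoic acid, was at 0.087 ± 0.12 and RDH10, which oxidizes retinol, at 0.025 ± 0.044.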
